A study of Mus musculus with 12 samples.

Results

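The sterol regulatory element binding proteins (SREBPs) and the proteins that hold or cut them are encoded by 7 mouse genes: Srebf1, Srebf2, Scap, Insig1, Insig2, Mbtps1 and Mbtps2. They were taken by symbol from a table of RNA sequencing counts for 25284 genes, and 7 of 7 were found there and were among the 15857 genes with enough counts to be tested. Srebf1 was chosen by its higher counts in AZ6983 mice than in controls, so its values are described without a test, and the other 6 were chosen for their roles. The samples were thoracic aortas of 12 male ApoE-/- mice on a C57BL/6 background. These mice lack apolipoprotein E, which clears lipoproteins from blood, and all 12 ate a high fat diet enriched in cholesterol. From 10 to 18 weeks of age, 6 mice received AZ6983 at 50 µmol/kg/day through subcutaneous osmotic minipumps and 6 control mice received vehicle through the same kind of pump. AZ6983 is an agonist of the alpha 7 nicotinic acetylcholine receptor (α7nAChR), and the comparison asks which transcripts of the aortic wall differ after 8 weeks of stimulation. Control mice are called C1 to C6 here and AZ6983 mice A1 to A6. Each mouse is 1 sample, and whole aortic tissue was used, so fewer cells of a type and less RNA per cell cannot be told apart.

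SREBPs are made as membrane proteins of the endoplasmic reticulum (ER) and are bound there by SCAP, an escort protein that senses cholesterol. When sterols are plentiful, INSIG proteins retain SCAP in the ER. When sterols are low, the complex travels in COPII vesicles to the Golgi, where site-1 protease (encoded by Mbtps1) and then site-2 protease (Mbtps2) cut the SREBP and free a transcription factor. SREBP-2, from Srebf2, acts mainly on genes of cholesterol synthesis and uptake, while SREBP-1c, a product of Srebf1, acts mainly on genes of fatty acid synthesis and is itself a target of the oxysterol receptor LXR. Counts of messenger RNA do not measure this cutting.

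Stretches of 250 bases upstream of annotated transcription starts are shown for the 3 members whose promoters are known to respond to sterols: Srebf1, Srebf2 and Insig1. Sequences are from RefSeq on build GRCm38.p6 and read 5′ to 3′ on the gene's own strand. Of the 3 starts that RefSeq gives for Srebf1, the third is shown because it holds elements known to bind LXR. Capitals mark matches, on either strand, to 4 motifs: GGTTACT, the first letters of the LXR elements known in this Srebf1 promoter, the sterol regulatory element ATCACCCCA, the E-box CACGTG and the NF-Y box CCAAT.
Srebf1, chr11:60210472-60210721, minus strand: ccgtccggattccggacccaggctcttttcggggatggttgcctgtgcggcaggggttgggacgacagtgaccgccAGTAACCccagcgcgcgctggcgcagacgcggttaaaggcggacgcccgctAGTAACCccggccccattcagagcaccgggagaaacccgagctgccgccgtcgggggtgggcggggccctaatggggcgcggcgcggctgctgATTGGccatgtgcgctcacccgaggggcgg
Srebf2, chr15:82147019-82147268, plus strand: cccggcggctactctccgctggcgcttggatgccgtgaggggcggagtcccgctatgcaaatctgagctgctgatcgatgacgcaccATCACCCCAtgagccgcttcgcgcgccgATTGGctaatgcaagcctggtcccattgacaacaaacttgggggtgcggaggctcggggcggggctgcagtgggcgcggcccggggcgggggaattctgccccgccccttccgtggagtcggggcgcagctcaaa
Insig1, chr5:28071162-28071411, plus strand: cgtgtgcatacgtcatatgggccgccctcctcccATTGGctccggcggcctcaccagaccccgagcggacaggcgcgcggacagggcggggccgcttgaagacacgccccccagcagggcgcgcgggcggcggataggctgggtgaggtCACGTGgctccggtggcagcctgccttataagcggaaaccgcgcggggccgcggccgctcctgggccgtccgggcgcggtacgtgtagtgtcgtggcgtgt

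The Srebf1 stretch held GGTTACT at 2 places, whose most distant bases lay 174 and 123 bases before the start, and an NF-Y box at 30 bases. The Srebf2 stretch held a sterol regulatory element at 163 bases and an NF-Y box at 135 bases. In Insig1 an NF-Y box lay at 216 bases and an E-box at 101 bases. Among 32851 promoters of this length in the reference, 1.88% held GGTTACT at 1 or more places and 0.0365% at 2 or more, and 0.24% held the sterol regulatory element, 6.02% the E-box and 33.8% the NF-Y box. Since GGTTACT was taken from this Srebf1 promoter, its presence there is no finding. A match is a description of the sequence and does not show that a factor bound there. Only exact letters were searched, so a stretch without a match may still hold a variant of the element.

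Counts on genes ranged from 25641329 to 29131708 per control mouse and from 23810036 to 35864666 per AZ6983 mouse. The unit of level is CPM, the count divided by the library total in units of 1e+06 after TMM normalization. The disrupted gene, Apoe, had 117 to 306 counts in a control and 214 to 311 in an AZ6983 mouse, a range far below that of Srebf1 in the same libraries (3245 to 12849 counts). The share of reads that the counting assigned to no gene is called the no-gene share here. It was 10.1% ± 1.55 for controls and 12.8% ± 1.36 for AZ6983 mice (SD, n = 6 each). By a two-sided exact permutation test p was 0.0108. The counting settings are not given in full, so these reads may lie between genes or inside them, as in introns. Smooth muscle markers, which define the media of the aorta, summed to 13635 to 18157 CPM per control and 10615 to 18171 CPM per AZ6983 mouse, but fat markers were also abundant. The 10 white fat markers summed to 3515 to 6752 CPM per control and 4458 to 8325 CPM per AZ6983 mouse. The 10 brown fat markers summed to 2808 to 4674 CPM and 2517 to 6084 CPM, and while A5 was above every control, A1 to A4 (2517 to 2759 CPM) were below every control. The remaining treated mouse, A6, had 3260 CPM, above C6, the lowest control, and below the other 5 controls (4017 to 4674 CPM). Of the brown fat markers, Zic1 was at 3 counts or fewer in every mouse. Summed markers of thymocytes and T cells stood out in A4, which had 1051 CPM against 3.27 to 29.9 CPM in controls. Summed endothelial markers (807 to 1021 CPM and 872 to 1003 CPM), macrophage markers (727 to 1243 CPM and 636 to 1206 CPM) and Schwann cell markers (202 to 316 CPM and 209 to 295 CPM) overlapped between the groups. With all 12 mice, 1 of the 9 brown fat markers tested was lower at an unadjusted p under 0.05 in edgeR, against 2.81% of all genes. None was higher, and the summed brown fat markers gave p = 0.232 by a two-sided exact permutation test. Without A4, A5 and C6, 5 of the 9 were lower at that level, with a median log2 fold change of −0.47. So were 4 of the 10 white fat markers, with a median of −0.24, against 9.19% of all genes. A5 and C6 stood apart from their groups on these same brown fat sums, so the brown fat counts without them are no test. Each library also carries an unexplained serial number in its column name, with 3 to 7 and 12 on the controls and the others on the AZ6983 mice. Any order of handling behind these numbers and the treatment largely cannot be told apart.

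Srebf1 was the member that set the groups apart. The control mice had 112 CPM at the lowest, 132 CPM at the median and 218 CPM at the highest, and the AZ6983 mice had 249, 295 and 342 CPM. Every AZ6983 mouse was above every control, and C6 was the highest control by a wide margin, since the other 5 lay between 112 and 157 CPM. Among the treated mice, A1, A2 and A3 had 259, 249 and 260 CPM, whereas A4, A5 and A6 had 342, 330 and 334 CPM. The group means were 146 ± 38.4 CPM and 296 ± 43.8 CPM (SD, n = 6 each). The log2 fold change between them was 1.02, with a standard error (SE) of 0.155. Groups that did not overlap, with the AZ6983 mice higher, were seen for 0.259% of the genes tested, and for Srebf1 this is the property it was picked for. This value lay between 0.89 and 1.17 in 21 fits that varied the tool, the scaling, the filter, the covariates and the mice. It was 1.05 without A4, A5 and C6, 0.90 with scores of white and brown fat markers as covariates, and 0.89 with the no-gene share as a covariate. The part of these measures in the difference was not tested beyond these fits. In RefSeq the gene spans chr11:60199084-60224186 on the minus strand and has 12 transcripts in GENCODE M21. The counts are per gene, so the transcripts for SREBP-1a and SREBP-1c, which start at different first exons, cannot be told apart. Srebf1 shares 109 exon bases with Rai1 on the opposite strand, and 66 with the microRNA gene Mir6922 on its own strand.

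**Figure D1:**
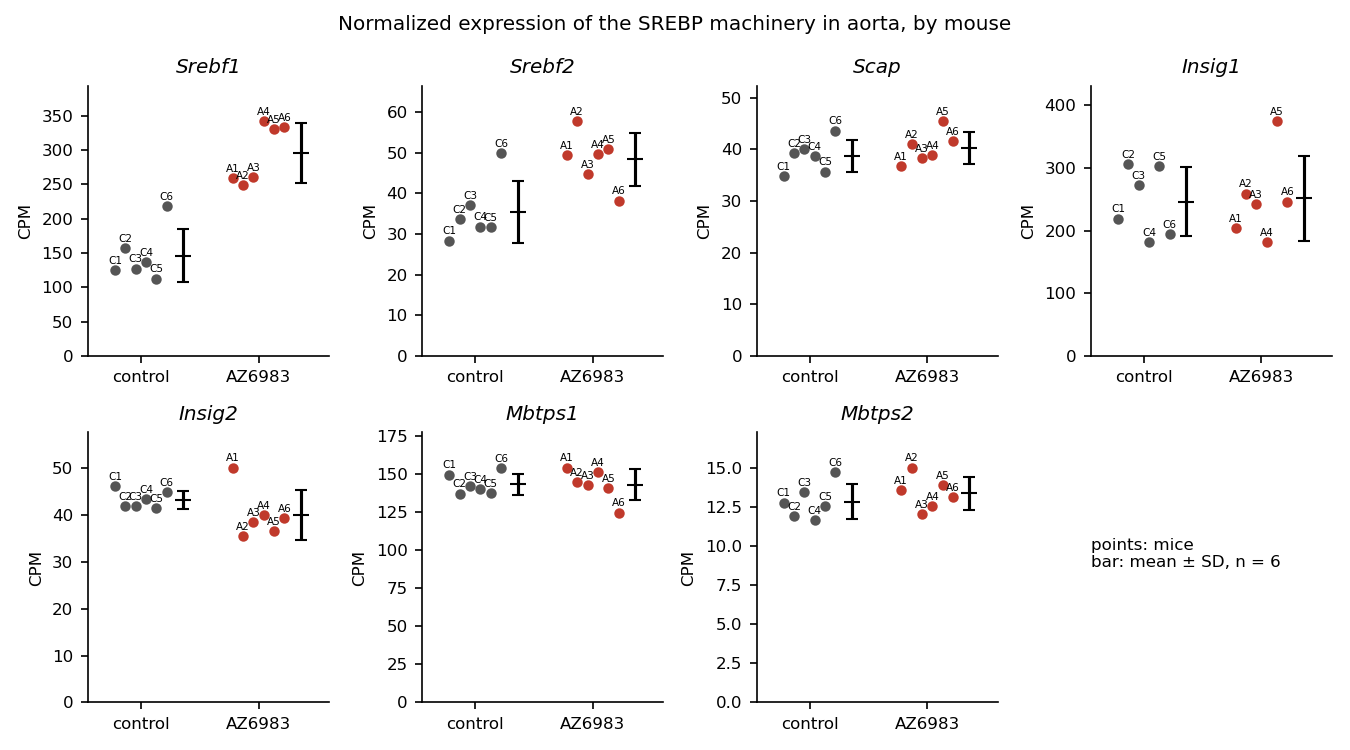
Normalized level of each of the 7 genes in CPM (vertical axes, from 0, a different scale in each panel) in 6 control mice (grey points, C1 to C6) and 6 AZ6983 mice (red points, A1 to A6), with bars for the mean ± SD. The groups are separate in the Srebf1 panel, where the controls end at 218 CPM and the AZ6983 mice start at 249 CPM, and they overlap in the other 6 panels.

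Srebf2, at chr15:82147269-82205379, encodes SREBP-2. The control mice had 28.4, 32.7 and 49.8 CPM as lowest, median and highest, and the AZ6983 mice 38.2, 49.5 and 57.7 CPM. The groups overlapped through C6 alone, since the other 5 controls ended at 37.1 CPM and the lowest AZ6983 mouse, A6, had 38.2 CPM. Means were 35.4 ± 7.62 CPM and 48.4 ± 6.53 CPM (SD, n = 6 each). Between the groups the log2 fold change was 0.45 (SE 0.132), with an unadjusted p of 0.00468 and an adjusted p of 0.447 from edgeR's quasi-likelihood test. The difference therefore did not pass the threshold of 10% false discovery rate (FDR). Only 2 of 6 AZ6983 mice were above every control, which 28.9% of all genes equalled or exceeded. Without C6 the log2 fold change was 0.57 (SE 0.101), given as a value with no test because that mouse is singled out by this gene. Without A4, A5 and C6 it was 0.53 (SE 0.116, adjusted p = 0.0785 from edgeR), which passed, in a fit where 2.44% of all genes did. In that fit brown and white fat markers were lower in AZ6983 mice, with the values given above. C6 is among the mice left out there, so this pass is not independent of the overlap through C6. With the fat scores as covariates the log2 fold change was 0.37 (SE 0.142, adjusted p = 0.637 from edgeR). With the no-gene share it was 0.33 (SE 0.191, adjusted p = 0.9998 from edgeR). The part of these measures in the Srebf2 difference was not tested beyond these fits. The microRNA gene Mir33 lies in an intron of Srebf2 and has no row of its own in the table.

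Across the 6 members other than Srebf1, 0 passed 10% FDR with edgeR, DESeq2 or limma-voom. Over all genes, 0% passed with edgeR, 0.523% passed with DESeq2 (92 genes) and 0 genes passed with limma-voom. At an unadjusted p under 0.05 in edgeR, 1 of the 6, Srebf2, was higher in AZ6983 mice and 0 were lower. Over all genes 7.38% were higher at that level (1170 genes) and 2.81% lower (446 genes).

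Scap, the escort that carries SREBPs out of the ER, had similar levels in both groups. Controls had 34.9, 39.1 and 43.6 CPM as lowest, median and highest, and AZ6983 mice 36.8, 39.9 and 45.5 CPM. The ranges lay almost on top of each other, with C6 the highest control and A5 the highest treated mouse. The log2 fold change was 0.06 (SE 0.0676, adjusted p = 0.764 from edgeR). It stayed between −0.03 and 0.09 over the 21 fits. A transcript on the opposite strand, 5830462I19Rik, shares 985 exon bases with Scap.

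The INSIG proteins, which keep the SCAP complex in the ER, come from Insig1 and Insig2. Insig1, itself a target of SREBPs, had 181, 246 and 306 CPM as lowest, median and highest control, and 181, 245 and 375 CPM in AZ6983 mice. These ranges overlapped over nearly their whole width, and A5, the mouse with the most brown and white fat marker RNA, was the highest. For Insig1 the log2 fold change was 0.03 (SE 0.181, adjusted p = 0.966 from edgeR). Its sign depended on single mice: it was −0.14 without A5 and 0.11 without A4, for example, and −0.13 without A4, A5 and C6.

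Insig2 showed a different arrangement. The controls were close together, at 41.4, 42.6 and 46.2 CPM as lowest, median and highest, and the AZ6983 mice spread over 35.5, 38.9 and 50.1 CPM. In 5 of 6 AZ6983 mice Insig2 was below every control, as 1.37% of all genes were in at least 5 mice, while A1 was above every control. With all mice the log2 fold change was −0.11 (SE 0.0770, adjusted p = 0.591 from edgeR). Without A1, the mouse that ran the other way on Insig2 itself, it was −0.19 (SE 0.0521), given as a value with no test because that mouse is singled out by this gene. A1 is also the library whose column matched the mouse's number in 3 of 4 digits. With the no-gene share as a covariate the log2 fold change of Insig2 was 0.03.

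The balance of the INSIG genes was compared within each mouse. The log2 difference of Insig1 minus Insig2 in CPM was 2.48 ± 0.377 in controls and 2.62 ± 0.481 in AZ6983 mice (SD, n = 6 each). The difference of 0.14 between the groups was within the spread between mice (p = 0.619 by a two-sided exact permutation test).

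The proteases had similar levels in both groups. Mbtps1, for site-1 protease, had 137, 141 and 154 CPM as lowest, median and highest control and 125, 144 and 154 CPM in AZ6983 mice. Only A6 lay outside the control range by more than 1 CPM, on the low side. The log2 fold change was −0.00 (SE 0.0582, adjusted p = 0.993 from edgeR), and it stayed between −0.05 and 0.08 over the 21 fits.

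Mbtps2, the X-linked gene for site-2 protease, had 11.6, 12.7 and 14.7 CPM as lowest, median and highest control and 12.03, 13.3 and 15.0 CPM in AZ6983 mice. The ranges overlapped over nearly their whole width. This gave a log2 fold change of 0.06 (SE 0.0761, adjusted p = 0.795 from edgeR). Mbtps2 rests on 301 to 471 counts per mouse, the fewest of the members, and shares 2867 exon bases with Yy2, a gene inside it on the same strand that has no row in the table.

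**Figure D2:**
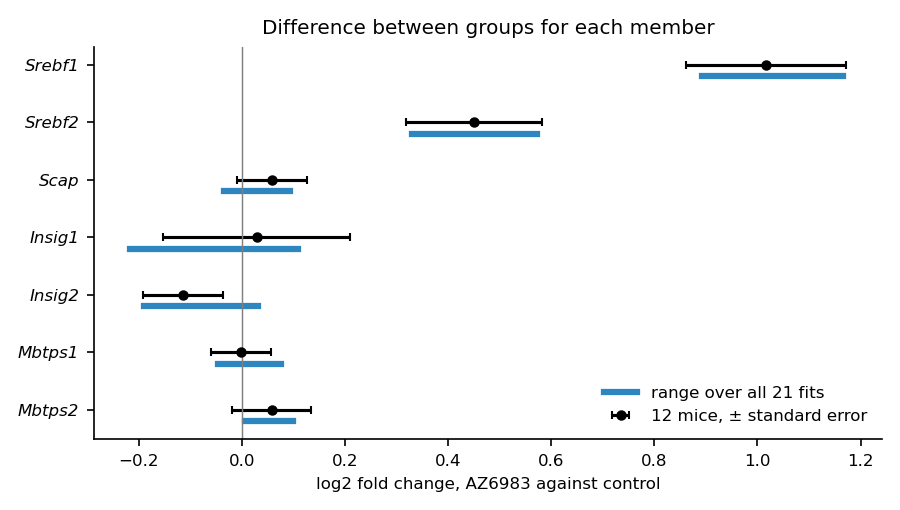
Log2 fold change of AZ6983 against control (horizontal axis) for each of the 7 genes, with black points and bars for the value ± standard error over 12 mice and blue bars for the range over 21 fits. Srebf1 (1.02) and Srebf2 (0.45) lie to the right of 0 over their whole ranges. So does Mbtps2 (0.06), with a range of 0.006 to 0.10, and the ranges of Scap, Insig1, Insig2 and Mbtps1 cross 0.

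C6 was the highest control for 5 of the 7 genes: Srebf1, Srebf2, Scap, Mbtps1 and Mbtps2. How many of all genes had C6 as the highest control was not counted. Of the controls, this mouse also had the lowest summed brown fat, white fat and endothelial markers. Its summed smooth muscle and macrophage markers were the highest of the controls. The part of this tissue makeup in the values of the 5 genes was not tested. The spread between mice differed among the members. As a percentage of the mean, the SD over control mice was 26.2% for Srebf1, 21.5% for Srebf2 and 22.3% for Insig1, against 4.40% for Insig2, 4.78% for Mbtps1, 8.16% for Scap and 8.65% for Mbtps2.

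Per kilobase of exon, the 7 genes spanned a wide range of levels. Insig1 was the most abundant in controls, at 79.7 ± 17.8 CPM per kb, followed by Srebf1 at 25.9 ± 6.81 CPM per kb (SD, n = 6 each). Mbtps1 (13.6 ± 0.651 CPM per kb) and Insig2 (12.5 ± 0.548 CPM per kb) came next, with overlapping ranges. Scap (5.20 ± 0.424 CPM per kb) and Srebf2 (4.93 ± 1.06 CPM per kb) also overlapped, and Mbtps2 was the least abundant at 1.27 ± 0.110 CPM per kb. Among 15281 tested genes with a known exon length, the control level of Insig1 stood at percentile 97.3, that of Srebf1 at 90.5 and that of Mbtps2 at 28.7.

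In AZ6983 mice the order per length was kept except that Srebf2, at 6.74 ± 0.910 CPM per kb, stood above Scap, at 5.42 ± 0.415 CPM per kb (SD, n = 6 each), with ranges that overlapped. Srebf1, at 52.5 ± 7.77 CPM per kb (SD, n = 6), reached into the lower part of the range of Insig1, which had 58.6 to 121 CPM per kb. The ratio of Srebf1 to Srebf2 per length was 5.21 in controls and 7.77 in AZ6983 mice. Insig1 exceeded Insig2 per length 6.26 times in controls and 6.91 times in AZ6983 mice, and Mbtps1 exceeded Mbtps2 10.7 and 10.2 times.

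**Figure D3:**
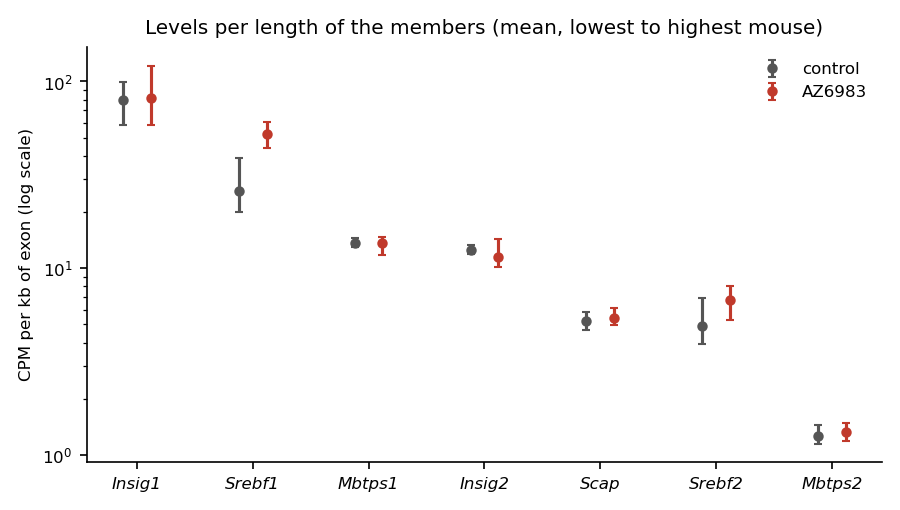
Level per length in CPM per kb of exon (vertical axis, log scale) for the 7 genes, ordered by control level, in control (grey) and AZ6983 mice (red), with points for the mean and bars from the lowest to the highest of 6 mice. The levels run from 1.27 CPM per kb for Mbtps2 to 79.7 CPM per kb for Insig1 in controls, and Srebf1 is the gene whose bars do not overlap between the groups.

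Whether the members varied together between mice was examined inside each group, so that the treatment did not enter. Of the 21 pairs of members, 14 had a positive Pearson r in controls (median 0.33) and 11 in AZ6983 mice (median 0.03). By exact permutation tests, 1 pair in controls and 0 in AZ6983 mice had p under 0.05, and 0 pairs passed after Benjamini-Hochberg adjustment over the 21 pairs of a group. That pair was Srebf2 and Scap in controls, with r = 0.92 and rho = 1 (exact permutation p = 0.00278 for both, n = 6, adjusted p = 0.0583), and r was 0.71 without the 2 mice farthest from the median. In AZ6983 mice the same pair had r = 0.05 (exact permutation p = 0.956, n = 6).

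The transcription factors gave Srebf1 and Srebf2 an r of 0.84 and a rho of 0.77 in controls (exact permutation p = 0.119 for r, n = 6), and r was 0.10 without the 2 farthest mice, so the value rests on them. In AZ6983 mice r was −0.41 and rho −0.37 (exact permutation p = 0.414 for r, n = 6). A6, which had the lowest Srebf2 of the treated mice, was among the 3 with the highest Srebf1.

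The genes most like Srebf1 over the 12 mice, by Pearson r of log2 CPM among 15856 other genes, were Utp14b (r = 0.95), Gm38257 (0.94), Prkdc (0.92), Pxn (0.91) and Scd2 (0.90). The last encodes a stearoyl-CoA desaturase. Srebf2 ranked 118 with r = 0.78 and Scap 1625 with r = 0.55, whereas Insig1 had r = −0.06 and Insig2 r = −0.40. These values share the contrast between the groups through which Srebf1 was picked. After each group was centred on its own mean, the leading genes were Fam122b (0.88), Lzts1 (0.87), Inpp5e (0.85), Smtnl2 (0.84) and Utp14b (0.84), with Scap at rank 76 (0.70), Scd2 at rank 181 (0.63) and Srebf2 at rank 1157 (0.45). The mice share library depth and tissue makeup across genes, so these correlations are a description.

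**Figure D4:**
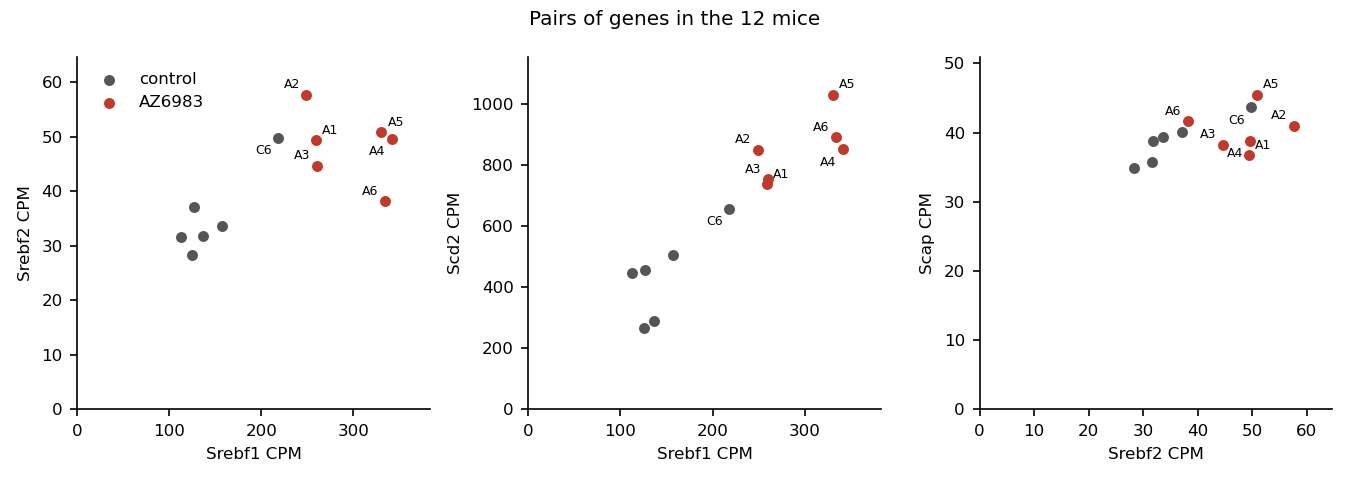
Levels of Srebf2 against Srebf1, Scd2 against Srebf1 and Scap against Srebf2 in CPM (both axes from 0) in 6 control (grey) and 6 AZ6983 mice (red); the AZ6983 mice and control C6 are labelled. C6 lies nearest to the treated mice in the panels with Srebf1, at 218 CPM of Srebf1, and the highest Scd2 is that of A5 at 1031 CPM.

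The genes that act around the 7 members were read from lists by role, with 15, 10, 9, 10, 22, 20 and 11 tested genes in the order below. Of these genes, 0 passed 10% FDR with edgeR, 0 with limma-voom and 3 (Abca1, Lpcat3 and Scd2) with DESeq2. Over all genes 0.523% passed with DESeq2. The median log2 fold change of all 15857 genes was 0.01. Counts below are of genes at an unadjusted p under 0.05 in edgeR, to be read against 7.38% of all genes higher and 2.81% lower. Of 15 factors that act in retention and degradation of sterol-regulated proteins in the ER, 1 was higher and 0 were lower, with a median log2 fold change of −0.02. It was Syvn1, an ER ubiquitin ligase, with a mean of 11.4 ± 1.75 CPM over controls and 15.6 ± 4.62 CPM over AZ6983 mice (SD, n = 6 each).

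Of 10 COPII coat genes, 1 was higher and 0 were lower, with a median of −0.03. This was Sec24b, a cargo-binding subunit, with a log2 fold change of 0.38 (SE 0.113) and an unadjusted p of 0.00517. Of 9 tested partners and other substrates of site-1 protease, 1 was higher, Creb3l1, an ER-bound transcription factor cut by the same proteases, with a log2 fold change of 0.50 (SE 0.208), and 0 were lower. The list had a median of −0.01. Spring1, which activates site-1 protease, had −0.10 (SE 0.0684), and Creb3l3 had too few counts to be tested.

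Of 10 nuclear partners and turnover factors, 2 were higher and 0 lower, with a median of 0.09. Both are acetyltransferases that act as coactivators: Ep300, with a log2 fold change of 0.37 (SE 0.139), and Crebbp, also with 0.37 (SE 0.158). Fbxw7, of the ubiquitin ligase that targets nuclear SREBP, had 0.07 (SE 0.0763). With the no-gene share as a covariate, Syvn1 came to −0.07, Sec24b to 0.10, Creb3l1 to −0.07, Ep300 to 0.02 and Crebbp to −0.10.

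For cholesterol synthesis and uptake, the genes known as targets of SREBP-2, 22 of 23 were tested and 11 lay above and 11 below 0, with a median of 0.02. At an unadjusted p under 0.05, 0 were higher and 0 lower, and without A5 2 were lower, against 6.95% of all genes. These 2, Pmvk (−0.26) and Nsdhl (−0.44), were named after their values were seen. Hmgcs1, for an early synthase of the pathway, had a log2 fold change of −0.08 (SE 0.139), and Sqle, for squalene epoxidase, had −0.09 (SE 0.240).

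Of 20 genes of fatty acid synthesis, known as targets of SREBP-1c, 18 lay above and 2 below 0, with a median of 0.21. At an unadjusted p under 0.05, 4 were higher and 0 lower. Scd2 ranged from 266 to 657 CPM over controls and from 737 to 1031 CPM over AZ6983 mice. These groups did not overlap, which held, with the AZ6983 mice higher, for 0.259% of the genes tested. C6 again had the highest control value. For Scd2 the log2 fold change was 0.97 (SE 0.195, adjusted p = 0.394 from edgeR).

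The other 3 encode enzymes that desaturate or lengthen polyunsaturated fatty acids. Fads2 had a log2 fold change of 0.47 (SE 0.141), Fads1 0.40 (SE 0.131) and Elovl5 0.26 (SE 0.0865). With the no-gene share as a covariate, 4 of the 20 were still higher, against 1.87% of all genes, and these were Scd2 (0.60), Fads1 (0.56), Fads2 (0.52) and Elovl5 (0.29).

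The enzymes that build the chain followed 1 mouse. Fasn, for fatty acid synthase, had 5071 to 7950 CPM over controls and 5595 to 7602 CPM in 5 AZ6983 mice, but 15904 CPM in A5. Acaca, for acetyl-CoA carboxylase, reached 2913 CPM in A5 against 964 to 1499 CPM in controls. A5 also had the highest Scd1, a desaturase of fat tissue, at 51257 CPM against 17907 to 29505 CPM in controls. The log2 fold changes of Fasn (0.37, SE 0.234), Scd1 (0.43, SE 0.216) and Acaca (0.38, SE 0.216) became 0.06, 0.21 and 0.09 without A5. Without that mouse 4 of the 20 genes were higher and 3 lower, against 5.85% and 6.95% of all genes, with a median of 0.05. Without A4, A5 and C6 the counts were also 4 and 3, with a median of 0.11, against 7.99% and 9.19% of all genes. In that fit Scd2 (1.03), Fads2 (0.59), Fads1 (0.55) and Mid1ip1 (0.22) were higher and Gpam (−0.52), Lpin1 (−0.32) and Acacb (−0.26) lower, the last 3 and Mid1ip1 being named after their values were seen. With scores of white and brown fat markers as covariates, 6 of the 20 genes were higher and 0 lower, with a median of 0.25. Over all 15857 genes in that fit, 762 were higher and 463 lower. Of all mice, A5 had the highest summed brown fat markers (6084 CPM) and white fat markers (8325 CPM). It also had the lowest summed smooth muscle markers (10615 CPM) and macrophage markers (636 CPM). The part of this tissue makeup in the values of the fatty acid genes was not tested beyond these fits.

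LXR receptors and their targets were listed because LXR acts on Srebf1. Of 11 genes, 4 were higher and 1 lower at an unadjusted p under 0.05, with a median of 0.06. Lpcat3, which remodels phospholipids with polyunsaturated chains, ranged from 34.8 to 43.8 CPM over controls. Over AZ6983 mice it ranged from 49.1 to 73.9 CPM, without overlap, as was seen in this direction for 0.259% of the genes tested. For Lpcat3 the log2 fold change was 0.60 (SE 0.0983, adjusted p = 0.200 from edgeR).

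Abca1, which exports cholesterol to apolipoproteins, had a log2 fold change of 0.52 (SE 0.124), Abcg1, another cholesterol exporter, 0.45 (SE 0.171) and Mylip, a ubiquitin ligase, 0.31 (SE 0.0886). Smpdl3a, a sphingomyelinase-like phosphodiesterase, had −0.23 (SE 0.0792). The receptor genes Nr1h3 and Nr1h2 had 0.08 (SE 0.105) and 0.06 (SE 0.0532). With the no-gene share as a covariate, 2 of the 11 genes were higher and 0 lower, against 1.87% and 1.07% of all genes. The values were then 0.48 for Lpcat3 and 0.37 for Mylip, which were the 2, and 0.22 for Abca1, 0.23 for Abcg1 and −0.04 for Smpdl3a. Without A4, 3 of the 11 were higher and 1 lower, against 7.04% and 2.45% of all genes, and Abcg1, which had its highest value in that mouse (90.8 CPM), came to 0.32 (SE 0.152). Without A4, A5 and C6, 4 were higher and 2 lower, with a median of 0.03, against 7.99% and 9.19% of all genes. The median of the list was −0.01 without A5.

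**Figure D5:**
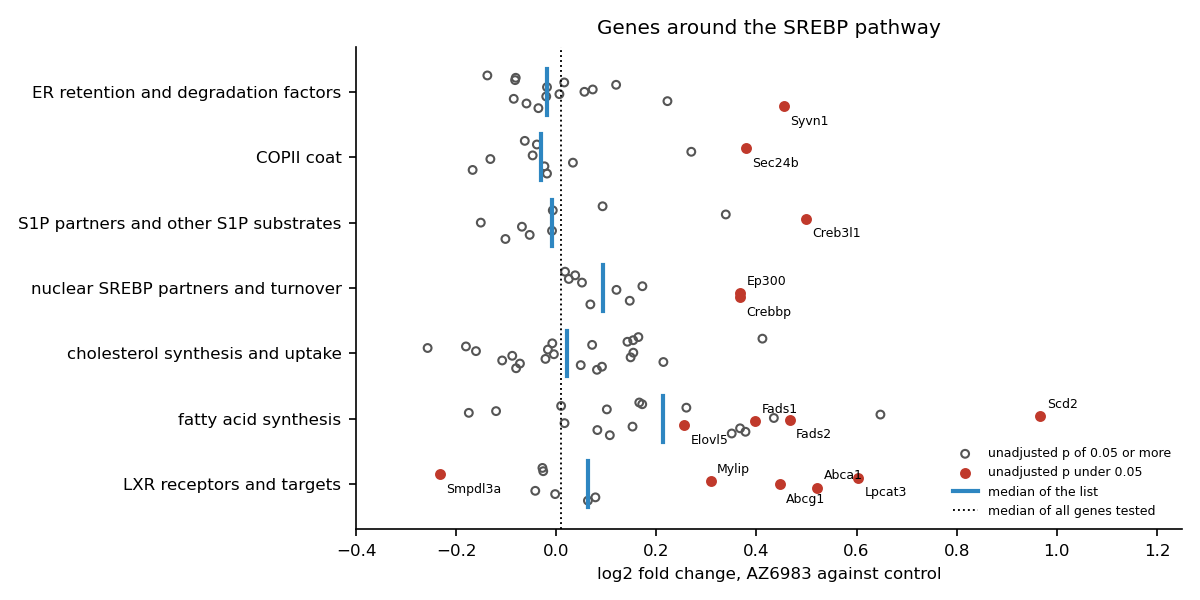
Log2 fold change of AZ6983 against control (horizontal axis) for the tested genes of 7 lists around the SREBP pathway, with filled red points for an unadjusted p under 0.05 in edgeR, open points for the rest, blue bars for the list medians and a dotted line for the median of all genes (0.01). The median of fatty acid synthesis, 0.21, lies farthest to the right with all 12 mice, and was 0.05 without A5, below the 0.06 of nuclear SREBP partners. With scores of white and brown fat markers as covariates the median of fatty acid synthesis was 0.25. Cholesterol synthesis and uptake has no filled point with all mice, and had 2 genes lower without A5.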

How the data were processed

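The authors isolated total RNA, removed ribosomal RNA, prepared stranded libraries and sequenced them in pairs on a NextSeq500. They deposited raw counts per gene symbol. The submitters' processing notes name CASAVA 1.8.2, STAR 2.5.2b, HTSeq 0.6.1p1 and mm10. The annotation and the strand setting are not given in the sources used here. Left out were 3 rows that name no gene, for reads assigned to no gene (8.02% to 14.9%), at several places (18.1% to 23.2%) or ambiguous (0.606% to 0.698%).

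Groups came from the labels, each sample being a separate mouse. Columns matched mouse numbers, for A1 in 3 of 4 digits. Counts were compared with edgeR 4.0.16 in R 4.3.3 (TMM, filterByExpr, quasi-likelihood test, 10% FDR), with DESeq2 1.42.0, limma-voom 3.58.1, other scalings, no filter, covariates and left-out mice as alternatives. The code was tested on simulated data. log2 CPM used a prior count of 2. Exon lengths came from GENCODE M21, and 3 listed genes were matched through RefSeq synonyms.

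The members and lists were chosen with earlier results of these data known. Named were the members, up to 6 genes per list with the smallest unadjusted p under 0.05, a set of pathway genes whatever their values (some are not reported here), and the 5 genes most like Srebf1. Precision falls with a gene's count.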

Additional observations from a re-analysis of the deposited data

Results flagged for a closer look

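In groups of 6 mice, the highest or lowest mouse was compared with the rest by Dixon's criterion, and 4 of 32 groups had a mouse that stood apart, where chance gives about 1.6. Insig2 in A1 was at 5.65 on the log2 CPM scale, above the other AZ6983 mice at 5.15 to 5.33. The summed brown fat markers of C6 were at 11.5 on the log2 CPM scale, below the other controls at 11.97 to 12.2. Those of A5 were at 12.6, above the other AZ6983 mice at 11.3 to 11.7. The summed thymocyte and T cell markers of A4 were at 10.04 on the log2 CPM scale, above the other AZ6983 mice at 2.97 to 5.39. Srebf1 and Srebf2 were not among the groups with such a mouse.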

How the results depend on the processing

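Of all genes, 0 passed 10% FDR with edgeR. The count was 92 with DESeq2, 2 with library totals alone, 2 with fat scores as covariates, 391 without A4, A5 and C6, and 0 to 27 with 1 mouse left out (27 without A5). Of the 6 members tested, 0 passed. Without the 3 mice 1 did, Srebf2, in a fit where 2.44% of all genes did. Its log2 fold change was then 0.53 (adjusted p = 0.0785 from edgeR). The groups overlapped on Srebf2 through C6, which is among the 3 mice left out. This pass is therefore not independent of that overlap. Srebf2 was between 0.38 and 0.57 with 1 mouse left out. Of the listed pathway genes 0 passed. With DESeq2, 3 did (Abca1, Lpcat3 and Scd2), against 0.523% of all genes, and with library totals alone or fat scores 1 did (Lpcat3). Without the 3 mice 9 did, against 2.44% of all genes. Of these 9, 6 were higher (Abca1, Fads1, Fads2, Lpcat3, Mylip and Scd2) and 3 lower (Gpam at −0.52, Lpin1 at −0.32 and Sar1b at −0.28). With 1 mouse left out 0 to 1 did (Lpcat3, without A5). The cause of these changes was not tested. Values of Scap, Insig1, Insig2 and Mbtps1 lay on both sides of 0 over the fits, and 0 of these passed the threshold in any. No paired analysis was possible because the labels give each mouse its own number, with none shared between the groups. Counts per gene do not separate transcripts, and reads set aside as ambiguous are missing from overlapping genes.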
